A study of Mus musculus with 2 samples.

Results

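The cells described here are monocytes found in the hearts of mice, picked cell by cell from raw transcript counts. A cell was taken as a member when Plac8, Ly6c2 and Chil3 together gave at least 3 unique molecular identifiers (UMIs, each standing for 1 captured transcript) and Lyz2 gave at least 2. It could hold at most 1 UMI of the complement genes C1qa, C1qb and C1qc, fewer than 10 of S100a8 and S100a9, none of Cd209a, none of the lymphocyte genes Cd79a, Cd79b, Cd3e and Cd3g, and at most 3 of the fibroblast genes Dcn, Col1a1 and Col3a1. Only cells holding 1000 or more UMIs and 500 or more genes were searched, and cells above 10% mitochondrial UMIs were left out. The rule found 53 members among 7442 such cells, of 10667 cells in the files. Of these, 19 came from the wild-type library and 34 from the library of AC8-overexpressing hearts.

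Both libraries came from untreated C57/B6 mice. The AC8 animals overexpress adenylyl cyclase type 8, an enzyme that makes cyclic AMP, in cardiomyocytes according to the title of the series, and the wild-type animals were littermates. The promoter of the transgene, and the number, age and sex of the animals, are not given in the sources used here. Hearts of a genotype were pooled, and leukocytes (CD45+CD31-), mesenchymal cells (CD45-CD31-) and endothelial cells (CD45-CD31+) were sorted, mixed in equal numbers and sequenced as single cells on the 10x Genomics platform. Cells carrying both CD45 and CD31 were outside the sort, and some monocytes carry CD31, so the gate can set how many monocytes were caught. With 1 pooled library per genotype no difference between genotypes could be tested, and none below has a p-value. Intervals are exact 95% intervals of counting error and say nothing of the spread between mice. Those of levels and ratios treat each UMI as independent and leave out the spread between cells too.

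Monocytes are made in the bone marrow and travel in the blood. Classical monocytes of the mouse carry Ly6C and the chemokine receptor CCR2, which draws them into injured or inflamed heart, where they can become macrophages. Nonclassical monocytes have little Ly6C, depend on the transcription factor Nr4a1, and patrol the vessel wall.

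Of the genes that define the members, Ly6c2 lies on chromosome 15 (75108158 to 75111970, minus strand, mouse build GRCm38) and encodes a GPI-anchored surface protein. Its neighbour Ly6c1 (75044018 to 75048830) is a near copy: 802 of 822 aligned bases of their longest coding transcripts were identical (97.6%), so reads could be placed on the wrong copy. The promoters differ more. Over the 250 bases before and 50 after the start site, 208 of 266 aligned bases were identical (78.2%). The windows of Ly6c2 (chr15:75111922-75112221) and Ly6c1 (chr15:75048788-75049087), and those of Chil3 (chr3:106167515-106167814) and Lyz2 (chr10:117282223-117282522), are printed from RefSeq for GRCm38.p6, 5′ to 3′ on the gene's strand, all 4 genes being on the minus strand. They show how the Ly6c pair differ and where the core of the binding motif of PU.1, a master regulator of myeloid cells, occurs. Capitals mark AGGAAGT or its reverse complement.
Ly6c2: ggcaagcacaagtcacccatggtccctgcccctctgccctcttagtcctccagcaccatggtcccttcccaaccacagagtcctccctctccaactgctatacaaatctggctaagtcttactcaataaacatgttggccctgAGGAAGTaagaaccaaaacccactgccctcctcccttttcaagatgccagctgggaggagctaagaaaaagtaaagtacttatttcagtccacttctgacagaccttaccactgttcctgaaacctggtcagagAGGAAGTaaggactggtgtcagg
Ly6c1: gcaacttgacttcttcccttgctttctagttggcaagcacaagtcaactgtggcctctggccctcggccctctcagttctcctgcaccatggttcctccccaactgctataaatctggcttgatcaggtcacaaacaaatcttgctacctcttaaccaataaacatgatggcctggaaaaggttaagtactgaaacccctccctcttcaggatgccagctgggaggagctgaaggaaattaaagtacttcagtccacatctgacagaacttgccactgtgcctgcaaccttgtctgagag
Chil3: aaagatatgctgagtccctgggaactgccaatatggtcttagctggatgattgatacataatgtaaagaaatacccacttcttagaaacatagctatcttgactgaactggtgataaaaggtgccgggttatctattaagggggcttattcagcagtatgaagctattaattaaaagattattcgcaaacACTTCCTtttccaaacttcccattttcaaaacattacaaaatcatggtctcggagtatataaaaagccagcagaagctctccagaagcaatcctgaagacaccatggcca
Lyz2: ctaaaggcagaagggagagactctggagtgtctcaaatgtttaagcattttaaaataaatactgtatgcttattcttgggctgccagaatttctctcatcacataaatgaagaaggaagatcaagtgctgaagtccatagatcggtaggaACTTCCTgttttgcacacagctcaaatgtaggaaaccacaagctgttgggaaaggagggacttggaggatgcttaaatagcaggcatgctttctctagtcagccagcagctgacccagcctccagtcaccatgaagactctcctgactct

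On either strand, AGGAAGT occurred in 9.57% of 27025 promoters of this length, 1 per gene. The Ly6c2 window held 2 matches, first bases at -107 and 28 from the start site, and the Ly6c1 window none. Chil3 and Lyz2 had 1 match each, on the other strand, at -60 and -100, and the windows of Plac8 and Ccr2 had none. The motif TTGCNNAA, a core bound by C/EBP factors, was in 10.8% of the promoters and in none of these 6 windows. A match is a stretch of letters and not a shown binding site.

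The label of the cells was checked against marker genes. Lyz2, the lysozyme of myeloid cells, of which the rule asked for 2 UMIs, is given as a description: its UMIs ran from 18 to 151 with a median of 76 in the wild-type members, and from 13 to 297 with a median of 79 in the AC8 members. Genes that the rule did not use bear on the label. Ccr2 was detected in 13 of 19 wild-type members and 21 of 34 AC8 members. F13a1, coagulation factor XIII A, which classical monocytes express, was detected in 14 and 27, and Csf1r, the receptor that keeps monocytes and macrophages alive, in 15 and 24. Ccr2 or F13a1 was present in 16 of 19 and 31 of 34. Vcan, the matrix proteoglycan versican, was sparse, with a UMI in 2 and 5 members. Cells that should lack Ccr2 held little of it: among fibroblasts, with median depths of 2201.5 and 2749 UMIs, 0.0571% of wild-type and 0.147% of AC8 cells had a Ccr2 UMI, against 68.4% and 61.8% of members at median depths of 2286 and 2807.5 UMIs. Ccr2, F13a1 and Csf1r, which C1q macrophages also hold, were thus each found in most members. Some members had no Ly6c2, and 5 very deep members carried Spp1 and Gpnmb.

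Markers of other cells were at 0 for some lists and present for others. Of 19 resident macrophage genes, 6 were seen in wild-type members (77 UMIs in 19 of 19 cells) and 11 in AC8 members (155 UMIs in 32 of 34 cells). F13a1, which monocytes share, gave 44 and 72 of these and Selenop, the selenium carrier, 23 and 51, with Cd163, Lyve1, Timd4 and Vsig4 at 0. The dendritic list gave 17 UMIs in 9 wild-type members and 59 in 21 AC8 members, led by Bst2 (13 and 37), with Zbtb46, Xcr1 and Clec9a at 0. The fibroblast list gave 25 UMIs in 15 and 36 in 18 members, of which Gsn, the actin-severing gelsolin, gave 14 and 31. The part of these genes in the results was not tested. The lists for T cells, erythroid cells, and basophils and mast cells gave 0 UMIs in both libraries. The natural killer list gave 0 and 1 UMIs, and the B-cell list gave 7 and 5, all of Ighm. Of 20 neutrophil genes, 3 were seen in wild-type members (10 UMIs in 6 of 19 cells, 0 to 2 per cell). In AC8 members 7 were seen (43 UMIs in 24 of 34 cells, 0 to 6 per cell). Trem1 led in wild type and Csf3r in AC8, with Cxcr2 and Retnlg at 0. Csf3r was detected in 1 wild-type and 11 AC8 members. S100a8 and S100a9 together, limited by the rule, summed to 0 UMIs in wild-type members, while 4 AC8 members had 1 UMI each. The 12 endothelial genes gave 60 UMIs in wild-type members and 31 in AC8 members, of which Fabp4, which binds fatty acids, gave 34 and 12. UMIs of the 12 genes were found in 10 of 19 wild-type and 7 of 34 AC8 members. Most lay in single cells: 1 wild-type member had 31 of them and 1 AC8 member 25. Whether the deposited barcodes were shared between the libraries could not be counted, because the files number the cells in place of barcode sequences.

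The plot of genes in each cell lays out how the members vary, ordered by Ly6c2.

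**Figure D1:**
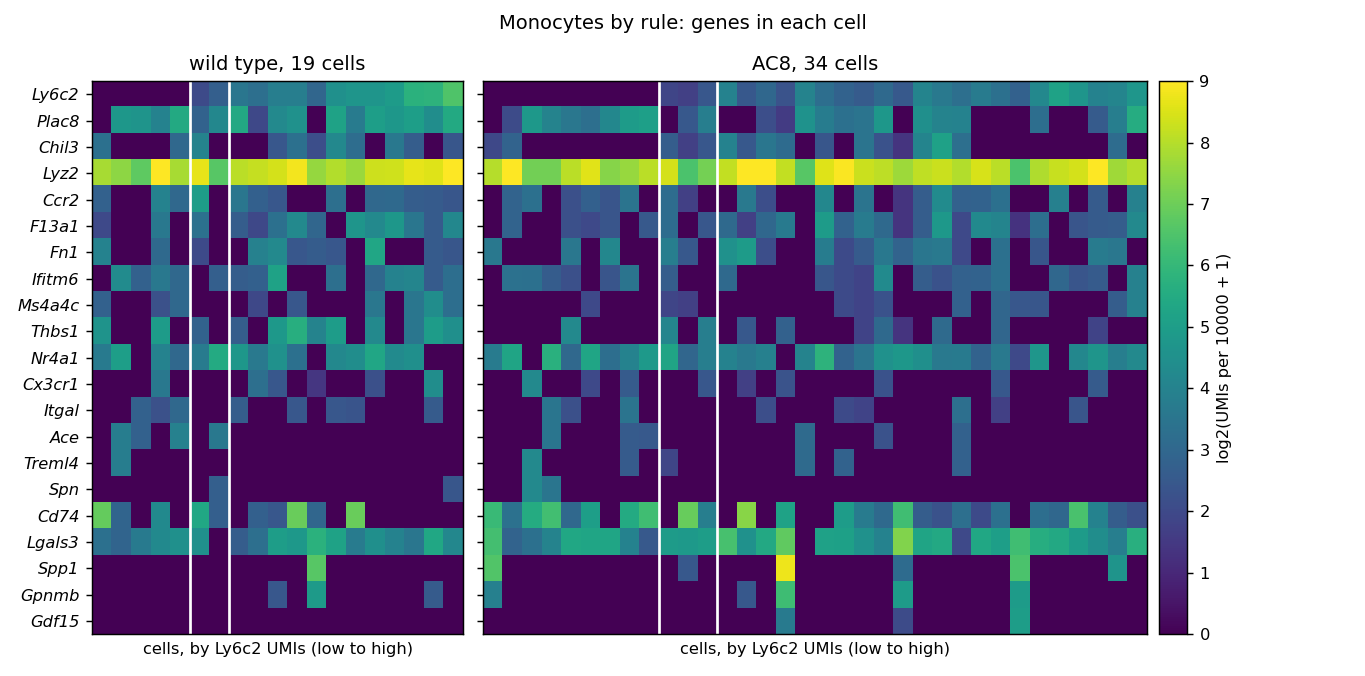
Heat map of 21 genes (rows) in each member (columns) of the wild-type (19 cells) and AC8 (34 cells) libraries, as log2(UMIs per 10000 + 1), with cells ordered from low to high Ly6c2 UMIs. White lines part cells with 0, 1, and 2 or more Ly6c2 UMIs. Lyz2 is high in every cell, and Spp1 and Gpnmb stand out in 5 cells. Ace and Treml4 sit at the left in wild type and are more spread in AC8.

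Plac8, an endosomal and lysosomal cysteine-rich protein abundant in myeloid cells, ranged over members from 0 to 10 UMIs with a median of 4 in wild type, and from 0 to 13 with a median of 3 in AC8. Ly6c2 ranged from 0 to 21 with a median of 3 in wild type, and from 0 to 7 with a median of 2 in AC8. Chil3, the chitinase-like protein Ym1, ranged from 0 to 5 with a median of 1 and from 0 to 9 with a median of 0.5. The 2 libraries overlapped for each of these genes, and most members held 2 or all 3 of them: all 3 in 8 of 19 and 11 of 34, and Plac8 alone in 3 and 7. The sum of the 3 had a median of 8 UMIs in wild type and 5 in AC8. Just inside the threshold, 1 wild-type and 7 AC8 members had a sum of 3. Just outside it, 2 wild-type and 11 AC8 cells met every other clause with a sum of 2. Those 11 cells held 18090 CPM (a gene's UMIs summed over the cells, per 1000000 summed UMIs) of Cd74, the invariant chain of MHC class II, against 3992 CPM in the 7 members just inside. The clause on C1q left out 2 wild-type and 10 AC8 cells that met all others, and the clause on S100a8 and S100a9 left out 1 and 2.

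Summed over members, the level of Plac8 in wild type was 1844 CPM (1479 to 2271), and that in AC8 was 817 CPM (658 to 1002). Ly6c2 was at 1781 CPM (1422 to 2202) and 701 CPM (555 to 874). Chil3 was at 524 and 399.5 CPM, Ccr2 at 649 and 444 CPM, and Lyz2 at 30400 and 29650 CPM. Plac8 and Ly6c2 were lower in AC8. For Chil3, Ccr2 and Lyz2 the interval of the ratio held 1: 0.458 to 1.30, 0.428 to 1.11, and 0.917 to 1.04. Plac8, Ly6c2 and Chil3 chose the members through a fixed number of raw UMIs, and AC8 members were deeper, so these 3 ratios are a description. The part of depth in them was not tested.

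Across the other cells, classed by rules on their own marker UMIs, Ly6c2 was at 1.71 and 7.20 CPM in C1q macrophages (510 wild-type and 662 AC8 cells) and at 0.242 and 0.253 CPM in fibroblasts. Cells rich in S100a8 and S100a9, only 3 and 5 in number, held 370 CPM (44.9 to 1338) on 2 UMIs and 438 CPM (119 to 1121) on 4. B and T cells held 245.5 CPM (185.5 to 319) in wild type and 47.9 CPM in AC8. Dendritic cells with Cd209a had no Ly6c2 UMI in 22 wild-type cells (interval up to 43.0 CPM) and 275 CPM (199.5 to 369) in 37 AC8 cells. The neighbour Ly6c1 had the opposite place: 105 and 44.4 CPM in monocytes, and 4255 and 5447 CPM in endothelial cells, where Ly6c2 gave 3.82 and 0 CPM. The counts thus kept the 2 copies apart between these cell types. Ccr2 was highest in monocytes, followed by Cd209a dendritic cells with 233 and 243 CPM. In AC8 the intervals of the monocytes (329 to 585) and of the dendritic cells (173 to 333) met at their edges. F13a1 was not highest in monocytes: C1q macrophages held 1969 and 1370 CPM against 922 and 639 CPM, and Csf1r likewise 1203 and 989 CPM against 524 and 595 CPM.

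**Figure D2:**
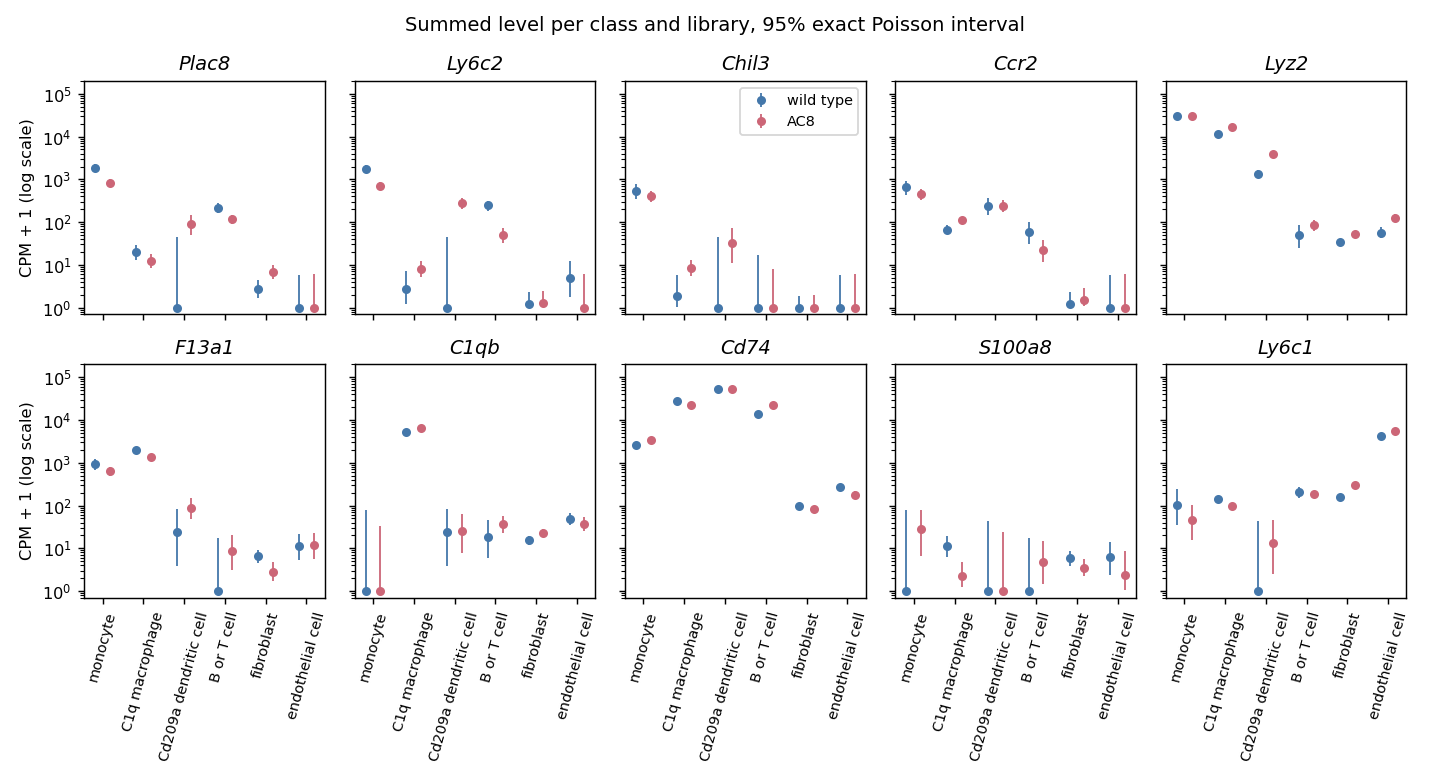
Summed level of 10 genes in 6 cell classes (x axis) as CPM + 1 on a log axis, wild type in blue and AC8 in red, with exact 95% Poisson intervals of counting error. Plac8, Ly6c2 and Chil3 are highest in monocytes and C1qb in C1q macrophages among these 6 classes, where the class rules placed them, and Ly6c1 in endothelial cells. The few S100a8 and S100a9 cells are not drawn: their Chil3 was at 3333 CPM (1976 to 5268) in wild type and 219 CPM in AC8.

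Beside C1q macrophages, 20 genes were named for the highest ratio in monocytes. The choice of cells could fix their levels, so they are a description. Hp, the hemoglobin scavenger haptoglobin, was at 775 and 763 CPM in monocytes and at 0.856 and 6.35 CPM in macrophages. Slpi, a protease inhibitor of secretions, was at 314 and 186 CPM against 1.71 and 8.05. Napsa, an aspartic protease, was at 566 and 355 CPM against 11.98 and 35.2. The glutathione enzymes Gsr and Mgst1, the methionine sulfoxide reductase Msrb1, the Src-family kinase Fgr and the urokinase receptor Plaur also belonged to the 20. For Hp, Gsr, Fgr and Plaur the interval of the AC8 to wild-type ratio spanned 1, so a difference between the libraries was not detectable at this depth.

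Members made up 2.05% of kept leukocytes in wild type (18 of 877 cells, 1.22 to 3.22) and 2.52% in AC8 (34 of 1349 cells, 1.75 to 3.50). The difference was 0.468 percentage points, with an interval from -0.934 to 1.76. The missing wild-type member had 4 UMIs of the endothelial genes Cdh5, Kdr and Cldn5 and fell outside the rule for leukocytes. Depth bears on this share, because kept cells had a median of 1930 UMIs in wild type and 2388 in AC8. With every cell thinned to 1000 UMIs the shares were 1.67% (14 of 840) and 1.21% (16 of 1324), and the difference was -0.458 points (-1.69 to 0.602). With a depth of 2000 UMIs it was -0.276 points (-2.62 to 1.60). The direction of the difference thus turned with depth, and these 3 intervals held 0. Of mononuclear phagocytes, members were 3.27% and 4.16%. Of all kept cells they were 0.511% and 0.913%, a difference of 0.402 points whose interval (0.00227 to 0.816) did not hold 0. The cells counted there include the sorted mix of cell types. That share was not thinned, and the parts of the mix and of depth in it were not tested.

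Members differed in how much Ly6c2 they held. No Ly6c2 UMI was found in 5 of 19 wild-type members (26.3%, 9.15 to 51.2) and 9 of 34 AC8 members (26.5%, 12.9 to 44.4), and 2 or more were found in 12 (63.2%) and 22 (64.7%). At full depth the shares in the 2 libraries were close, within wide intervals. After each member was thinned to 1000 UMIs, 8 of 19 wild-type and 22 of 34 AC8 members had no Ly6c2 UMI. In each library 6 members then had 2 or more, so the shares were no longer close. Ace, angiotensin-converting enzyme, and Treml4, both expressed by nonclassical monocytes, were found in a larger share of the members without Ly6c2. In wild type, 3 of the 5 members with no Ly6c2 UMI had a UMI of either gene, against 0 of the 12 with 2 or more. In AC8 the counts were 4 of 9 against 4 of 22. The level of F13a1 was lower without Ly6c2, at 375 CPM in wild-type members against 1155 CPM in those with 2 or more. In AC8 it was at 203 and 853 CPM. Csf1r was higher without Ly6c2, at 1125 against 312 CPM in wild type and 1013 against 427 CPM in AC8. Cebpb, a transcription factor on which nonclassical monocytes depend, was at 5248 against 2715 CPM and at 4999 against 4335 CPM.

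Summed over the 6 classical genes Ccr2, F13a1, Fn1, Vcan, Ms4a4c and Ifitm6, the level in members without Ly6c2 was 2811 CPM (1897 to 4013) for the wild-type library and 1486 CPM (1080 to 1995) for the AC8 library. Where Ly6c2 gave 2 or more UMIs, the sums were 3683 CPM (3048 to 4410) and 2739 CPM (2371 to 3147). The nonclassical genes without Nr4a1 ran opposite, at 1218 CPM (649 to 2083) and 777 CPM (492 to 1166) without Ly6c2, against 499 CPM (285 to 811) and 358 CPM (234 to 524). In both libraries the members without Ly6c2 thus had less of the summed classical set and more of the summed nonclassical set. The intervals overlapped except for the classical set in AC8. Single genes did not all follow: in wild type Ccr2 was at 656 CPM without Ly6c2 against 437 CPM, Cx3cr1 at 281 against 312 CPM, and Spn at 0 against 31.2 CPM. Of the 9 AC8 members without Ly6c2, 1 carried Spp1 and Gpnmb. It was the deepest member, with 10617 UMIs, and held no Ccr2 or F13a1. Its weight in these sums was not tested. Nr4a1 was detected in 15 of 19 and 31 of 34 members and was at 1312 CPM without Ly6c2 against 1404 CPM with 2 or more UMIs in wild type. In AC8 it was higher without Ly6c2, at 2060 CPM (1576 to 2646) against 1445 CPM (1182 to 1749), with overlapping intervals. It is also an immediate-early gene. Wild-type members without Ly6c2 were shallower, with a median of 1667 UMIs against 2308.5. After thinning each member to 1000 UMIs, the classical sums were 2250 and 4167 CPM in wild type and 1500 and 3333 CPM in AC8, and the nonclassical sums 1375 and 1000 CPM in wild type and 864 and 167 CPM in AC8. The order stayed, and the last value rests on 1 UMI.

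A few members stood apart by Spp1, the secreted matrix protein osteopontin, and Gpnmb, a lysosomal glycoprotein, both known from macrophages of injured tissue. At least 10 UMIs of this pair were found in 1 of 19 wild-type members and 4 of 34 AC8 members (11.8%, 3.3 to 27.5). These were the deepest of all, with 5841 UMIs in wild type and 10617, 6769, 6417 and 5096 in AC8, and they gave 12.2% and 25.7% of their library's member UMIs. The wild-type cell had 59 Spp1 UMIs and the AC8 cells 98, 58, 5 and 220. Lgals3, galectin-3, was at 5307 CPM in the wild-type cell and 10140 CPM in the AC8 cells, against 1743 and 2806 CPM in the other members. Ccr2 gave 0 to 1 UMIs in each, Plac8 0 to 1, and C1qa, C1qb and C1qc none. They met the rule through Ly6c2 or Chil3, from 0 to 4 UMIs of each. The wild-type cell also held 18 UMIs of Fabp4, and it was the member with 4 UMIs of Cdh5, Kdr and Cldn5 that fell outside the rule for leukocytes. A search for doublets, cells that neighbour simulated pairs, removed 173 wild-type and 145 AC8 cells and no member.

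Outside the members, the same level of Spp1 and Gpnmb was reached by 2 of 510 wild-type C1q macrophages (0.392%, 0.0475 to 1.41) and 31 of 662 AC8 ones (4.68%, 3.20 to 6.58). Because the 5 cells weigh so much in the sums, values without them are given beside many of those below. Leaving them out was decided after the data were seen.

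**Figure D3:**
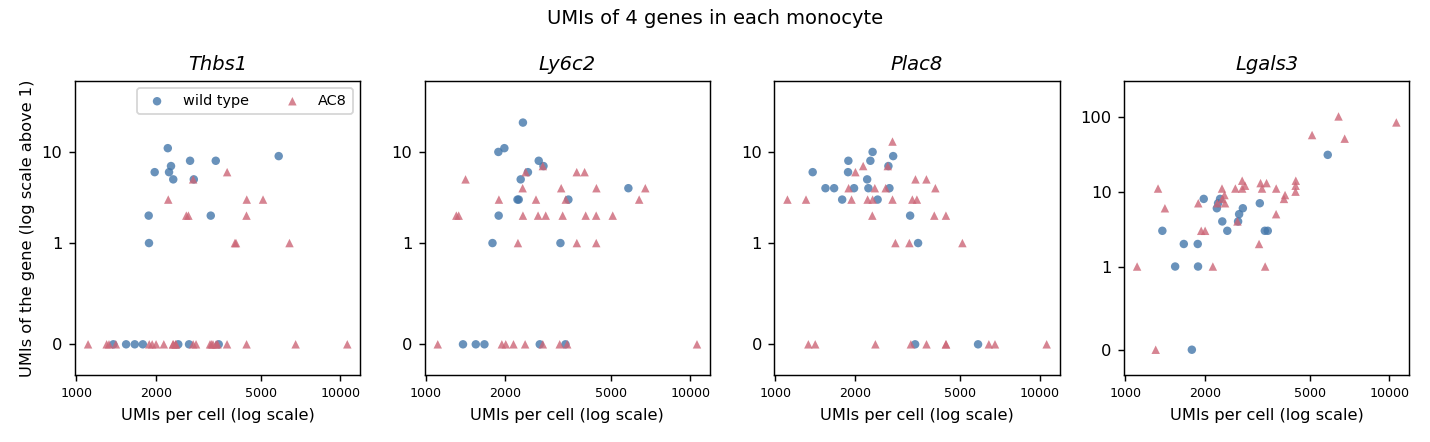
UMIs of Thbs1, Ly6c2, Plac8 and Lgals3 (y axis, log scale above 1) against all UMIs of the cell (x axis, log scale) in each member, wild type as blue circles and AC8 as red triangles. Thbs1 is present in 12 of 19 wild-type and 11 of 34 AC8 members, and the 5 deepest cells have the highest Lgals3.

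Genes were then compared between the genotypes over all members: 47733 UMIs in wild type, where 1 UMI is 21.0 CPM, and 112647 in AC8, where 1 UMI is 8.88 CPM. Of 1252 genes with at least 20 summed UMIs, 63 (5.03%) were at least 2-fold higher in AC8 and 44 (3.51%) at least 2-fold lower, 8.55% in all, on the scale log2(CPM + 50). The median over the 1252 genes was 0.048. A 2-fold difference is a size, not a test, and the shallow wild-type sum limits low genes most. Adcy8, the overexpressed gene, had 0 UMIs in the members of both libraries (up to 62.9 and 26.6 CPM, the value of 3 UMIs), so the genotype could not be read from these cells.

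Ranked on log2(CPM + 50), first among the genes lower in AC8 came Thbs1, thrombospondin-1, an adhesive glycoprotein of platelets and monocytes that activates latent TGF-beta (chromosome 2, 118111876 to 118127133, plus strand). Wild-type members held from 0 to 11 UMIs with a median of 2, and AC8 members from 0 to 6 with a median of 0. The ranges overlapped, but 12 of 19 wild-type members and 11 of 34 AC8 members had any. After thinning to 1000 UMIs, these shares were 57.9% and 17.7%. The summed levels of the wild-type and AC8 members were 1466 CPM (1143 to 1853) and 257 CPM (172 to 369.7), a ratio of 0.176 (0.110 to 0.274). On CPM alone H1f4 and Fabp4 had lower ratios, 0.134 and 0.150, on fewer UMIs. Among members with 2 or more Ly6c2 UMIs the levels were 1623 and 206 CPM, and in those without Ly6c2 1499 and 169 CPM. Over the 16 alternative settings the log2 ratio ran from -2.71 to -1.87. Fibroblasts showed the same direction, at 471 and 135.5 CPM. C1q macrophages had little Thbs1 in either library, 26.5 and 32.2 CPM. Free RNA from fibroblasts was not tested as a source.

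Cd14, the co-receptor for bacterial lipopolysaccharide, had from 0 to 27 UMIs with a median of 4 in wild-type members, and from 0 to 20 with a median of 3 in AC8 members. The ranges overlapped. Its level was 3499 CPM (2988 to 4071) and 1243 CPM (1045 to 1467), a ratio of 0.355 (0.282 to 0.447), and its log2 ratio stayed between -1.57 and -1.36 over the settings. C1q macrophages differed less, at 2334 and 1786 CPM. Gda, guanine deaminase, had a median of 2 UMIs in wild-type members and 0 in AC8, and was at 733 and 151 CPM, with 13 of 19 and 11 of 34 members positive (57.9% and 11.8% after thinning to 1000 UMIs). H1f4, a linker histone, was at 398 and 53.3 CPM. Glul, glutamine synthetase, was at 439.9 and 79.9 CPM. Sub1, a transcription coactivator, was found in all 19 wild-type members and 19 of 34 AC8 members (63.2% and 26.5% thinned), at 879.9 and 311 CPM. The other 6 of the 12 lowest were Spag9, Tppp3, Ets2, Coro1b, Rassf3 and Bzw1. Their ratios lay between 0.254 and 0.283, on 8 to 17 UMIs per library, and that of Rassf3 was 0.409 (0.150 to 1.09) without the 5 cells. Thbs1, H1f4, Gda, Glul and Cd14 stayed at least 2-fold lower in all 16 settings.

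Among the 12 highest, several were detected at full depth in few wild-type members and in many of the deeper AC8 members. Bax, an effector of cell death, had 3 UMIs in 2 of 19 wild-type members and 43 UMIs in 20 of 34 AC8 members, for 62.9 and 382 CPM and a ratio of 6.07 (1.94 to 30.6). After thinning to 1000 UMIs its shares of positive cells were 5.26% and 23.5%. Lmna, which encodes the nuclear lamins A and C, had 1 UMI in wild type and 30 in AC8, a ratio of 12.7 with an interval from 2.11 to 519. Hexa, a subunit of the lysosomal beta-hexosaminidase, was at 147 and 497 CPM, found in 5 of 19 and 20 of 34 members (10.53% and 29.4% thinned). Rnh1, an inhibitor of ribonucleases, was at 251.4 and 781 CPM in 6 and 24 members (10.53% and 32.4% thinned). Ccl4, a chemokine that attracts leukocytes, was at 83.8 and 595 CPM, found in 2 and 12 members (0% and 23.5% thinned). The 2 highest AC8 cells held 20 and 19 of its 67 UMIs. Manf, an endoplasmic reticulum stress protein, was at 21.0 and 257 CPM, found in 1 and 14 members (0% and 5.88% thinned). Rilpl2, Rhob and Bola2 had ratios from 4.13 to 5.93 with wild-type counts of 2 to 4 UMIs. After thinning, the shares of positive cells were 15.8% and 32.4% for Rilpl2, 5.26% and 11.8% for Rhob, and 5.26% and 17.7% for Bola2. For Lmna they were 5.26% and 20.6%. Ccl4, Lmna, Manf, Bax and Hexa stayed at least 2-fold higher on the scale log2(CPM + 50) in all 16 settings. For Manf the interval without the 5 cells held 1 (0.888 to 257).

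For the remaining genes of the 12, Spp1, Rgs1 and Sgk1, the AC8 levels rested on the Spp1 and Gpnmb cells. Spp1 itself was at 1236 and 3480 CPM, and 59 of 59 wild-type UMIs came from 1 cell. Without the 5 cells it was at 0 UMIs in wild type and 131 CPM in AC8, at least 1.83-fold higher. The log2 ratio of Spp1 was then 1.86, against 1.46 over all members. Spp1 itself helped pick the 5 cells, so the value without them is a description. Of the 11 AC8 UMIs left, 1 cell held 9. Rgs1, a regulator of G-protein signalling, was at 147 and 701 CPM over all members, but at 167 and 71.6 CPM without those cells. Sgk1, a serum- and glucocorticoid-induced kinase, had a log2 ratio of 2.35 over all members and 0.79 without them. Gdf15, a stress-induced cytokine of the TGF-beta family, was not among the 12 and was named from a gene list. It was found in 0 of 19 and 3 of 34 members, at 0 and 257 CPM, at least 4.10-fold higher. Without the 5 cells it had 0 UMIs in both libraries.

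**Figure D4:**
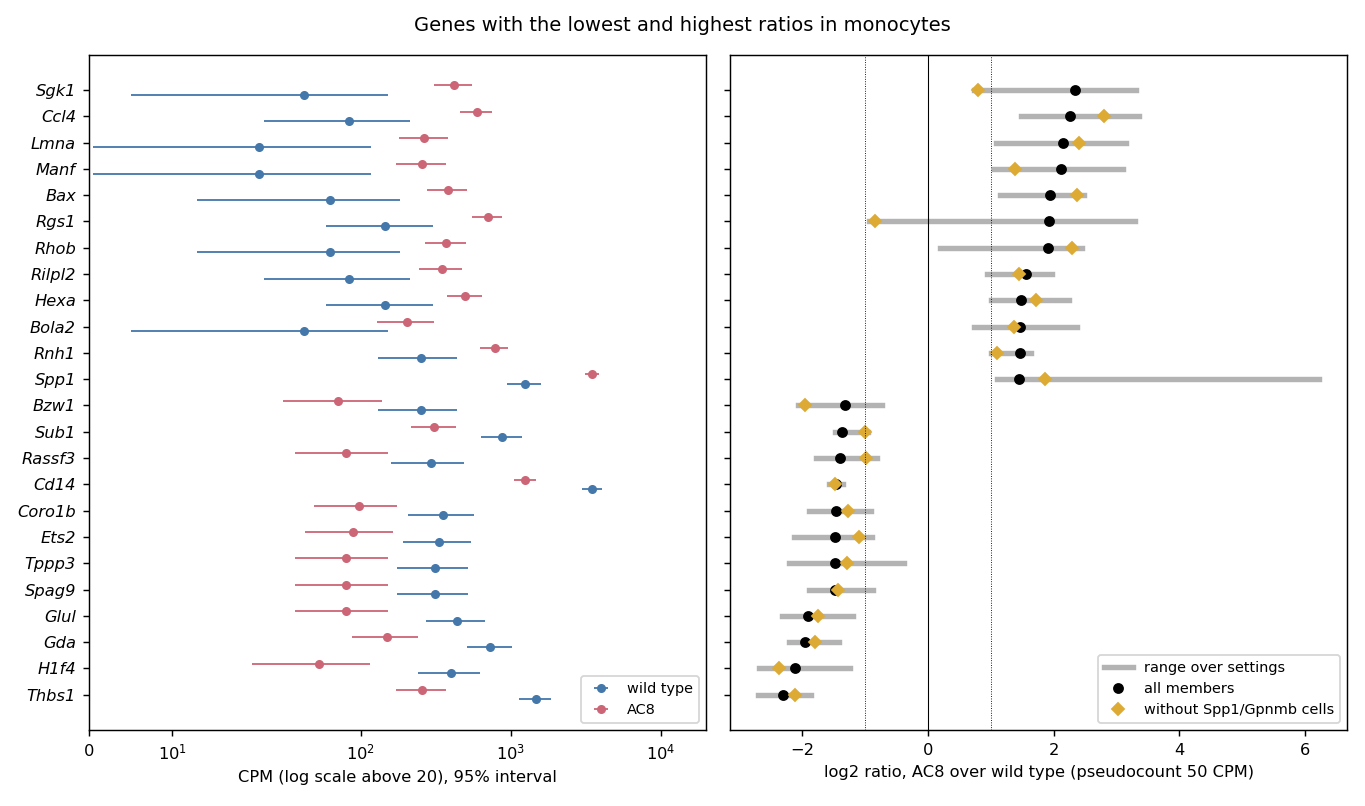
The 12 genes with the lowest and the 12 with the highest ratio of AC8 to wild type in members. Left, CPM with exact 95% Poisson intervals, blue for wild type and red for AC8; right, the log2 ratio over all members (black), without the 5 Spp1 and Gpnmb cells (yellow diamonds) and its range over the alternative settings (grey bars). Rgs1 turns sign without those cells, while Thbs1 and Cd14 keep their place.

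Gene lists are described by how many of their measured genes had a higher or lower ratio, beside 662 higher and 590 lower of all 1252. Of all 1252, 5.03% were at least 2-fold higher and 3.51% at least 2-fold lower. Of 18 measured genes of classical monocytes, 4 were higher in AC8 and 14 lower, with a median log2 ratio of -0.36. Beside Thbs1 and Ly6c2, the lower genes included Ifitm6, an interferon-induced membrane protein, at 712 and 337 CPM, and Ms4a4c at 356 and 186 CPM. Fn1, fibronectin, and Hp differed little, at 733 and 675 CPM and at 775 and 763 CPM. Mgst1 was higher, at 335 and 470.5 CPM. Without the 5 cells the median was -0.29, and in members with 2 or more Ly6c2 UMIs -0.09. None of these genes was 2-fold higher, and 3 were 2-fold lower: Thbs1, Tppp3 and Ly6c2. Ly6c2 also chose the members, so its place in these counts is a description.

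Of 10 nonclassical genes, 2 were higher and 8 lower, with a median of -0.50 (0.03 over genes with 50 or more UMIs). Cx3cr1, the fractalkine receptor that keeps patrolling monocytes alive, was at 272 and 115 CPM on 13 UMIs in each library, and Itga4, the integrin alpha 4 chain, was at 377 and 159.8 CPM on 18 in each. Both ratios had intervals that held 1 without the 5 cells, at 0.459 and 0.530. Pglyrp1, which binds bacterial peptidoglycan, was at 293 and 71.0 CPM. Fabp4 had the lowest ratio, and 18 and 14 of its 34 wild-type UMIs came from 2 cells. Lower values in both monocyte sets went with the lower sum of the rule's genes. Their link to depth was not tested.

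Of 16 genes that rise as monocytes become macrophages, 12 were higher in AC8 and 4 lower, with a median of 0.81. Lgals3 was at 2179 and 4687 CPM. Wild-type members held from 0 to 31 UMIs with a median of 4, and AC8 members from 0 to 101 with a median of 9.5. Ctsb, the lysosomal protease cathepsin B, was at 2682 and 4465 CPM, and Cd9, a tetraspanin, was at 105 and 337 CPM. Apoe, apolipoprotein E, was lower, at 3268 and 2060 CPM, but 1 wild-type cell held 76 of its 156 UMIs. Without the 5 cells the median of the list was 0.15, Lgals3 was at 1743 and 2806 CPM (ratio 1.61, 1.23 to 2.12), and Ctsb at 1337 and 1743 CPM. The intervals of the ratios of Ctsb, Cd9 and Apoe then held 1.

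Of 24 lysosomal and lipid genes, 16 were higher and 8 lower, with a median of 0.31, and 0.36 without the 5 cells. In members whose sum of Plac8, Ly6c2 and Chil3 was 5 or more it was -0.13. Cd68, a lysosomal membrane glycoprotein of phagocytes, was found in 9 of 19 wild-type and 26 of 34 AC8 members, and in 21.1% and 61.8% after thinning to 1000 UMIs. It was at 461 and 1039 CPM, a ratio of 2.25 (1.42 to 3.73), and at 334 and 585 CPM without the 5 cells (ratio 1.75, 0.951 to 3.43). Ctsz, Ctsd and Grn, which encode 2 further cathepsins and progranulin, were at 524 and 1021 CPM, 754 and 1438 CPM, and 566 and 976.5 CPM over all members. Ctsd was, without the 5 cells, at 167 and 179 CPM (ratio 1.07, 0.411 to 3.11), and the ratios of Ctsz and Grn were 1.58 (0.919 to 2.86) and 1.39 (0.797 to 2.53). For Ctsd 1 wild-type cell held 80.6% of the UMIs. Ferritin, the iron store, belonged to the 20 most abundant genes: Ftl1 was at 8024 and 17740 CPM and Fth1 at 7940 and 16720 CPM. Without the 5 cells these were 5586 and 9457 CPM and 6278 and 7797 CPM. Both ferritin genes have many processed copies in the genome, so their counts are uncertain.

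Glycolytic genes leaned 1 way. Of 11 measured, 10 were higher in AC8 and 1 lower, with a median of 0.50, and 0.30 without the 5 cells. Aldoa, aldolase A, was at 566 and 1083 CPM, Pkm, pyruvate kinase, at 566 and 959 CPM, Tpi1 at 209.5 and 399.5 CPM and Gapdh at 1383 and 2202 CPM. The lower gene was Hif1a, the oxygen-sensing transcription factor that drives many of them, at 314 and 106.5 CPM. None of the 10 was 2-fold higher. The ratios of Gapdh and Pkm without the 5 cells were 1.23 (0.872 to 1.76) and 1.42 (0.878 to 2.36), while that of Aldoa was 2.03 (1.20 to 3.61).

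NF-kB, the family of inflammatory transcription factors that includes RelA, was looked at through its targets. Of 20 measured, 13 were higher and 7 lower, with a median of 0.27, 0.17 without the 5 cells and -0.02 in members with a sum of the rule's genes of 5 or more. Ccl4, Bcl2a1b and Sod2 were at least 2-fold higher, the last pair on 1 and 2 wild-type UMIs: Bcl2a1b, which blocks cell death, was at 21.0 and 177.5 CPM and Sod2, mitochondrial superoxide dismutase, at 41.9 and 169 CPM. The interval of the ratio held 1 for Sod2 (0.971 to 35.6), and for Bcl2a1b without the 5 cells. Nfkbia, the inhibitor that NF-kB itself induces, was lower, at 1529 and 701 CPM (ratio 0.459, 0.329 to 0.639). Il1b, the cytokine interleukin-1 beta, was at 1446 and 1758 CPM, from 0 to 12 UMIs with a median of 2 in wild type and from 0 to 27 with a median of 3 in AC8. The chemokines Ccl2 and Cxcl2 were at 628.5 and 994 CPM and at 1278 and 1935 CPM. In wild type 1 cell held 26 of 30 Ccl2 UMIs and in AC8 1 cell held 113 of 218 Cxcl2 UMIs. Without the 5 cells Ccl2 was at 95.5 and 561 CPM and Cxcl2 at 1289 and 1063 CPM. Rela itself had 1 and 8 UMIs.

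Of 13 genes of the type I interferon response, 3 were higher and 10 lower, with a median of -0.30, which was 0.02 in members with a sum of the rule's genes of 5 or more. Irf7, the transcription factor that amplifies the response, was the only gene of the 13 at least 2-fold higher, and none was 2-fold lower. It was at 105 and 311 CPM (ratio 2.97, 1.16 to 9.70), found in 4 of 19 and 13 of 34 members. After thinning to 1000 UMIs these shares were 15.8% and 14.7%, and 1 cell held 14 of its 35 AC8 UMIs. Without the 5 Spp1 and Gpnmb cells its ratio was 2.38, with an interval that held 1 (0.790 to 9.60). Ifitm3 was at 4965 and 3959 CPM (ratio 0.872, 0.739 to 1.03, without the 5 cells) and Ifi27l2a at 3038 and 2681 CPM. C1q macrophages shared the direction of Irf7, at 41.1 and 137 CPM.

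Antigen presentation split by gene. Of 6 MHC class II genes 3 were higher and 3 lower (median -0.10, but -0.52 without the 5 cells and 0.33 in members with 2 or more Ly6c2 UMIs). Cd74 was at 2577 and 3444 CPM (2841 and 2997 CPM without the 5 cells) and H2-Eb1 at 356 and 124 CPM. Of 11 class I genes 7 were higher and 4 lower (median 0.07, and -0.06 without the 5 cells), and B2m, the light chain of class I, was at 2325 and 1332 CPM. Of 13 genes of pattern recognition, 5 were higher and 8 lower (median -0.18, but 0.18 without the 5 cells, and of the other sign in 5 of 16 settings). Clec4n, the fungal receptor dectin-2, was at 83.8 and 266 CPM, and at 95.5 and 227 CPM without the 5 cells, where the interval of the ratio held 1. Among chemokine and cytokine receptors 4 of 12 were higher and 8 lower (median -0.26, but 0.20 in members with 2 or more Ly6c2 UMIs), and among adhesion and migration genes 6 of 19 were higher and 13 lower (median -0.20).

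Cyclic AMP acts through protein kinase A and the transcription factor CREB. Of 13 genes of this signalling and its targets, 6 were higher and 7 lower, with a median of -0.15 (0.02 without the 5 cells). Pde4b, a phosphodiesterase that breaks down cyclic AMP, was at 398 and 213 CPM, Nr4a1 at 1487 and 1651 CPM and Dusp1, a phosphatase of MAP kinases, at 1425 and 1900 CPM. Immediate-early genes, which can be switched on while tissue is dissociated, gave 17 higher and 11 lower of 28 (median 0.10). Junb was at 2723 and 4146 CPM, Fos at 1173 and 1598 CPM (1194 and 1206 CPM without the 5 cells), Egr1 at 335 and 249 CPM and Ier5 at 545 and 222 CPM. The share of mitochondrial UMIs in members was alike, with medians of 1.16% and 1.28%.

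**Figure D5:**
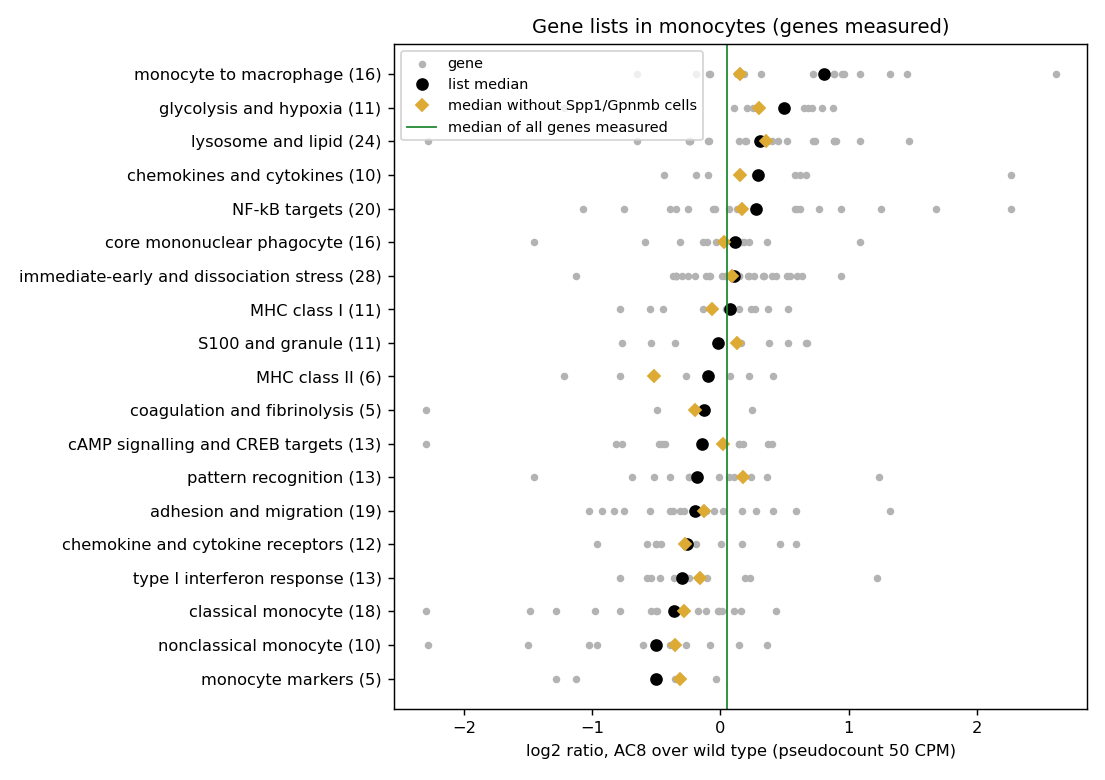
Log2 ratio of AC8 to wild type in members for 19 gene lists, with the number of measured genes in brackets. Grey points are genes, black points list medians, yellow diamonds medians without the 5 Spp1 and Gpnmb cells, and the green line the median of all 1252 genes. The list of monocyte-to-macrophage genes has the highest median, 0.81, which is 0.15 without those cells.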

How the data were processed

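The submitters deposited, for 1 pooled wild-type and 1 pooled AC8 heart library, filtered matrices of raw UMI counts per gene and cell (5800 and 4867 cells, 22441 genes), made by the authors with Cell Ranger against mm10, per the submitters' processing notes. The Cell Ranger version, chemistry and strand handling are not given in the sources used here. The members and gene lists were chosen with earlier results of these data known.

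Cells below 1000 UMIs or 500 genes, or above 10% mitochondrial UMIs, were left out (3719 and 3723 kept). Counts were summed over members, scaled to CPM by the summed total and given exact Poisson intervals, and shares exact Clopper-Pearson intervals, with Python 3.11.15, numpy 2.4.6 and scipy 1.17.1. Ratios were checked on simulated data. Genes needed 20 summed UMIs and a pseudocount of 50 CPM. Genes named were the 12 highest and 12 lowest ratios with at least 200 CPM and 5 positive cells in the higher library and at least 20% of the level of the highest class there, up to 4 per list with the largest ratios and any past 2-fold, the 20 most abundant, the 20 highest over C1q macrophages, and fixed markers. Some genes of the middle of a list were named after their values were seen. Gene positions and promoters come from GENCODE and RefSeq for GRCm38. No doublets were removed, except in an alternative that took out the highest-scoring cells and no member. Other filters, pseudocounts, scalings and member rules were tried as alternatives. One gene of the fixed monocyte markers is not reported here.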

Additional observations from a re-analysis of the deposited data

Results flagged for a closer look

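For 9 genes the monocytes and the C1q macrophages lay on opposite sides of a ratio of 1 between AC8 and wild type, with neither interval holding 1. The share of all genes on opposite sides is not given, so the 9 are a description. The macrophage sums are large, so even a small ratio there can have an interval without 1 (0.826 to 0.948 for Rhob). With 1 library per genotype the difference between the cell types was not tested. Higher in AC8 monocytes and lower in AC8 macrophages were Rhob, a small GTPase (ratio 5.93 in monocytes and 0.885 in macrophages), Hspa5, an endoplasmic reticulum chaperone (1.61 and 0.668), and Cd74 (1.34 and 0.807). Lower in AC8 monocytes and higher in AC8 macrophages were Tmsb10, an actin-binding peptide (0.845 and 2.43), the calcium-binding S100a4 (0.673 and 1.58) and S100a11 (0.565 and 1.35), Apoe (0.630 and 1.15), the transcription factor Nfil3 (0.562 and 1.32), and Sirpb1c (0.449 and 6.06). Without the 5 Spp1 and Gpnmb cells the monocyte ratios of Hspa5, Cd74, Apoe, Tmsb10 and Sirpb1c had intervals that held 1, at 1.03, 1.06, 0.844, 0.898 and 0.5002.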

How the results depend on the processing

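No paired analysis was possible because each genotype has 1 pooled library. The share of leukocytes moved beyond its interval with the cells counted: 3.30% in wild type and 3.63% in AC8 at 2000 or more UMIs and 1000 or more genes, 1.21% in AC8 after thinning to 1000 UMIs, and 1.41% in AC8 with a sum of Plac8, Ly6c2 and Chil3 of 5 or more. Other denominators gave 3.27% and 4.16% (mononuclear phagocytes) and 0.511% and 0.913% (all kept cells). The 63 genes at least 2-fold higher (5.03% of 1252) became 93 (7.43%) with a pseudocount of 10 CPM and 16 (1.28%) with 200 CPM. With no filter they were 243 of 8706 (2.79%), and with 50 or more UMIs 12 of 506 (2.37%). Without the deepest 10% of members they were 34 of 956 (3.56%), and with a sum of 5 or more 36 of 679 (5.30%). In members with no fibroblast UMI they were 96 of 1082 (8.87%). Without the 5 Spp1 and Gpnmb cells they were 32 of 989 (3.24%), and without each gene's highest cell 99 of 1252 (7.91%). The 44 lower (3.51%) became 67 (5.35%) with a pseudocount of 10 CPM and 12 (0.96%) with 200 CPM. With no filter 220 of 8706 (2.53%) were lower, and with 50 or more UMIs 16 of 506 (3.16%). With a sum of 5 or more 20 of 679 (2.95%) were lower, and in members with 2 or more Ly6c2 UMIs 27 of 828 (3.26%). Fewer or more genes were measured where the filter or members changed. Rgs1 turned to a log2 ratio of -0.93 without the deepest 10% and -0.84 without the 5 cells. Thinned members gave 3333 CPM (classical, AC8), 167 CPM (nonclassical, AC8) and 1000 CPM (nonclassical, wild type) at 2 or more Ly6c2 UMIs. Leaving out the 5 cells or each gene's highest cell, and keeping only members with 2 or more Ly6c2 UMIs, were chosen after seeing the data. Causes were otherwise not tested. Log2 ratios were followed for the 12 highest, the 12 lowest and some other named genes. Of their values over the settings, 536 stayed on their side of the 2-fold threshold, 38 crossed it and 2 reversed. Genes under 2-fold could change sign without crossing it: Lyz2, Cd74 and Fn1 kept their sign in 13 of 16 settings, and Ccr2 in 15. Of list medians, 223 stayed within the counting error of the list's summed UMIs and 81 moved.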
